A study of Mus musculus with 6 samples.

Results

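The S100 proteins are a family of small calcium-binding proteins, and their transcripts were followed here in cochleae, the coiled sound-sensing part of the ear, from mice aged 36 weeks and 7 weeks. The members were 10 S100 genes, each represented by every array probe set annotated to that single gene. The rule found 12 probe sets for 9 of the 10 genes, out of 22626 probe sets, and 12393 genes with such a probe set, in all. For S100a11 no single-symbol probe set was found, and its level is not analysed here. S100b, S100a1 and S100a10 were each measured by 2 probe sets.

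Total RNA came from cochlea tissue of males of DBA/2J, an inbred mouse strain known for hearing loss at a young age. The groups were 3 samples from animals aged 36 weeks and 3 samples from animals aged 7 weeks, with strain, sex and tissue shared by all of them. Each sample was hybridised to its own single-colour Affymetrix array, and the series asked which transcripts change with age-related hearing loss. The labels do not say how many animals gave a sample or that the samples of an age came from separate animals, so the p-values measure only the spread between these samples.

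S100 proteins carry a pair of EF-hand motifs, helix-loop-helix folds that hold calcium in most members. Most S100 proteins form dimers that bind a target protein when calcium rises. The members are spread over very different cells. S100a8 and S100a9 pair as calprotectin, which neutrophils and monocytes hold in large amounts and release as an alarm signal. S100b is abundant in glia, including Schwann cells, and in cartilage and pigment cells. S100a1 is best known from striated muscle, where it acts on calcium release and uptake, and both S100b and S100a1 are used to label supporting cells of the organ of Corti. S100a4, S100a6 and S100a10 are made by many fibroblasts and epithelia.

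The array medians lay between 844.0 and 859.4 at 36 weeks and between 766.3 and 800.5 at 7 weeks, in the linear signal units of the deposited table. Of 11 tested markers of the labelled tissue, 8 had a mean above the filter on dim signals, set at 593.6, at both ages, while Kcne1 and Tectb were below it at 36 weeks and Myo7a at 7 weeks. Otos, otospiralin of fibrocytes, averaged 13801 at 36 weeks and 73912 at 7 weeks, and Coch, cochlin of the cochlear matrix, averaged 21556 at 36 weeks and 82144 at 7 weeks. Of the 11 genes 0 were higher and 9 lower at 36 weeks, and of the 8 above the filter at both ages 7 were lower. Among all tested probe sets 17.7% were lower. Signals of different probe sets cannot be ranked against each other, so the comparisons below set each probe set against itself between the ages. The summed signal of a list, given below, is weighted to its brightest probe sets. All log2 differences are 36 weeks minus 7 weeks on the log2(signal + 50) scale, with the standard error (SE) of the fit and n = 3 arrays per age. In whole-tissue RNA, fewer cells of a type, less RNA per cell and a different share of neighbouring tissue in the sample cannot be told apart.

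Of the 12 probe sets, 11 lay above the filter in their mean over the 6 arrays, and each of these 11 was above it at both ages. The family did not move as a unit. Of the 11 tested probe sets 5 were higher at 36 weeks, 5 were lower and 1 did not pass. Among all 13575 tested probe sets 34.4% passed (16.7% higher at 36 weeks, 17.7% lower), at a Benjamini-Hochberg adjusted p of 0.05. The counts of each marker list below are to be read beside these shares. The signals of the ages did not overlap for 10 of the 11, against 47.8% of all tested probe sets. Both calprotectin genes rose more than 12-fold, S100a6 rose 2.58-fold, and S100a4 and S100a10 rose by less. S100b, S100a1 and S100a13 fell, S100a1 by 4.56-fold on its brighter probe set.

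**Figure D1:**
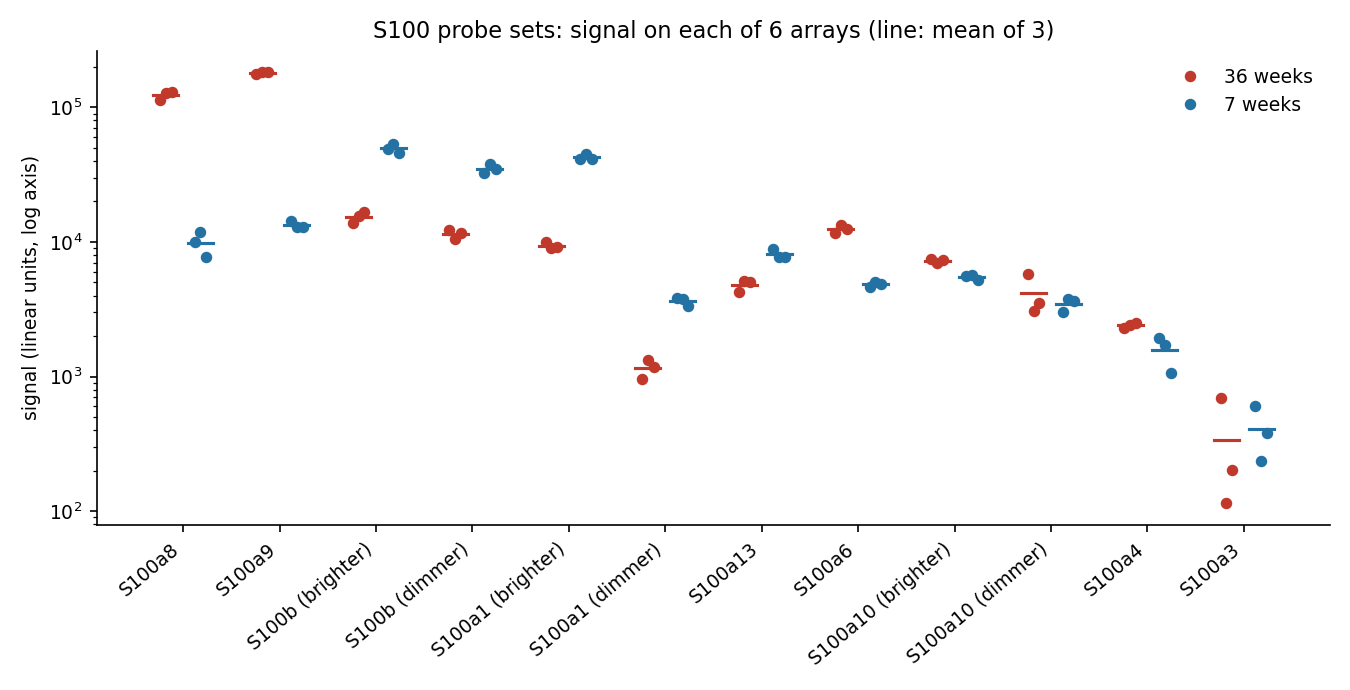
Signal of the 12 S100 probe sets on each of the 6 arrays, on a log axis in linear signal units, with the arrays of 36 weeks (red) left of those of 7 weeks (blue) and a line at each mean of 3. S100a8 and S100a9 lie at 114138 or more at 36 weeks and at 14255 or less at 7 weeks, S100b and S100a1 lie lower at 36 weeks on both of their probe sets, and the dim S100a3 overlaps between the ages.

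S100a8 and S100a9 were the members with the greatest change. S100a8 had signals of 114138, 126847 and 129923 at 36 weeks, against 10058, 11782 and 7718 at 7 weeks. The lowest array of 36 weeks was 9.69-fold above the highest array of 7 weeks. The mean was 123636 ± 8368 at 36 weeks and 9853 ± 2039 at 7 weeks (SD, n = 3 each), a 12.5-fold rise with a log2 difference of 3.66 ± 0.13 (limma, adjusted p = 1.14e-08). Its probe set is of the kind that can bind transcripts of related genes.

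S100a9, the calprotectin partner that carries a long tail beyond its second EF-hand, had signals of 176004, 181979 and 182301 at 36 weeks, against 14255, 12954 and 12996 at 7 weeks. The ages were far apart and the arrays within an age were close together. The log2 difference was 3.74 ± 0.06 (limma, adjusted p = 5.94e-11), a 13.4-fold rise of the mean. Ordered by log2 difference among the 13575 tested probe sets, S100a9 ranked 40 and S100a8 ranked 44 from the top. The highest signal of any probe set on the arrays of 36 weeks was between 222325 and 285434. Signals of different probe sets cannot be ranked, so this does not show whether S100a9 was near the top of its own range.

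Calprotectin works as a complex of both proteins, and its transcripts moved together. The within-array log2 ratio of S100a8 over S100a9 was -0.62, -0.52 and -0.49 at 36 weeks, against -0.50, -0.14 and -0.75 at 7 weeks. The values of the ages overlapped. The ratio differed by -0.08 ± 0.18 (SE, n = 3 arrays per age), with an exact two-sided permutation p of 0.8, and by 0.08 without the second array of 7 weeks. The level of such a ratio depends on the probes, and only its difference between the ages is read.

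The genes of this pair stand next to each other on mouse chromosome 3, and the stretches before their starts are shown because both rose together. They are RefSeq sequence of GRCm38.p6, chr3:90668821-90669070 on the plus strand for S100a8 and chr3:90695722-90695971 on the minus strand for S100a9. Each runs 5′ to 3′ over the 250 bases before the start. Capitals mark matches, on either strand, to a TATA box (TATAAA), an ETS-type core (GAGGAAG) and a C/EBP-type site (TTGCNNAA), the last 2 being kinds of site bound by factors that act in myeloid cells, among others.
S100a8: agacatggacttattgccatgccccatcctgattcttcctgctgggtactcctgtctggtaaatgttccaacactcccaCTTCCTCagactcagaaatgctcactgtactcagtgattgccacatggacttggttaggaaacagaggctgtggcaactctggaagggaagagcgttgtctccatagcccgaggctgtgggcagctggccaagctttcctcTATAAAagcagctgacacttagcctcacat
S100a9: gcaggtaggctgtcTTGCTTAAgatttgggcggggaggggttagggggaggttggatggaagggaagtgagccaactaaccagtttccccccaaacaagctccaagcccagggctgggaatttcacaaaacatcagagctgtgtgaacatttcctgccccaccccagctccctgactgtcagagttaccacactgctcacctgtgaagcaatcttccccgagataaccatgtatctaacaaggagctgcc
S100a8 had a TATA box ending 24 bases before its start and an ETS-type core ending 164 bases before it. S100a9 had a C/EBP-type match ending 228 bases before its start. No marked motif was found in both stretches. Both held unmarked matches to an E-box (CANCTG), ending 44 and 16 bases before the start of S100a8 and 47 before that of S100a9. Both also held an unmarked SOX-type core (ACAANG), ending 72 bases before the start of S100a8 and 7 before that of S100a9. The marked matches do not overlap. Of all 32851 promoter windows of this length, 12.4% held the TATA box, 10.6% the ETS-type core and 9.56% the C/EBP-type site. These are matches of letters and not measured binding.

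The markers of neutrophils and their marrow precursors rose beside calprotectin. Of the 19 genes of that list 15 were tested, and these were higher at 36 weeks, with a median log2 difference of 3.80, against a median of 0.02 over all tested probe sets. Their summed signal was 464553 to 494506 at 36 weeks and 32499 to 33078 at 7 weeks, and none was listed at 0 on all arrays. Of the 15, Ctsg, Cxcr2, Itgb2l and Chil3 were below the filter at 7 weeks and were tested only through 36 weeks. The other 11 were above it at both ages, and 11 were higher. Ltf, lactoferrin of neutrophil granules, rose by 3.65 ± 0.06 and Pglyrp1, a peptidoglycan-binding granule protein, by 4.73 ± 0.08. Mpo, myeloperoxidase, rose by 3.87 ± 0.07 and Ngp, a granule protein, by 3.93 ± 0.08.

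Set against the mean log2 value of these 15 markers on the same array, S100a8 differed by 0.09 ± 0.24 and its values at the 2 ages overlapped. The sign of that difference turned with quantile normalization and without the third array of 7 weeks (-0.06 in each). S100a9 gave 3.62, 3.66 and 3.69 at 36 weeks, against 3.39, 3.60 and 3.46 at 7 weeks. That ratio was higher by 0.17 ± 0.07 at 36 weeks without overlap, at the smallest exact permutation p that 3 against 3 arrays can give, 0.1. With quantile normalization the difference was 0.00, and with an offset of 1 it was 0.08. The mean of the 15 markers includes Ctsg, Cxcr2, Itgb2l and Chil3, which were tested only through 36 weeks. Ratios over the other 11 were not tested. A change of calprotectin within its cells and a shift of the whole list cannot be told apart in these data.

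Macrophages and monocytes can also hold these transcripts. Of 11 tested macrophage markers 2 were higher and 0 lower, against 16.7% higher and 17.7% lower among all tested probe sets. The list had a median log2 difference of 0.21. Its summed signal was 25592 to 26544 at 36 weeks and 20446 to 21734 at 7 weeks. Mpeg1, a pore-forming protein of phagocytes, rose by 1.49 ± 0.15 and Cd14, a receptor for bacterial lipopolysaccharide, by 0.35 ± 0.11, with adjusted p of 0.0219 to 0.0921 over the alternatives for Cd14. C1qa and Csf1r, with 0.34 and 0.19, did not pass. The part of macrophages in the calprotectin rise was not tested.

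The genes closest to S100a9 in their pattern over the 6 arrays, by the root mean square difference of mean-centred log2 values among 8555 genes, were Prl (0.06), Mpo (0.08) and Ltf (0.10). Prl, prolactin of the anterior pituitary, had a mean signal of 9551 at 36 weeks and 688.3 at 7 weeks. Mpo averaged 37036 at 36 weeks and 2482 at 7 weeks. The log2 differences of Prl, Mpo and Ltf were 3.70, 3.87 and 3.65, against 3.74 for S100a9. Closeness by this measure largely reflects a similar age difference, and shared variation within an age was not tested.

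S100b, the glial member, was lower at 36 weeks on both of its probe sets. The brighter gave 13716, 15462 and 16723 at 36 weeks, against 48914, 53663 and 45921 at 7 weeks. The dimmer gave 12288, 10598 and 11569 at 36 weeks, against 32503, 37740 and 35071 at 7 weeks. No array of 36 weeks came near an array of 7 weeks on either. The log2 differences were -1.69 ± 0.09 (limma, adjusted p = 1.86e-07) and -1.61 ± 0.08 (adjusted p = 1.59e-07), falls of 3.24-fold and 3.06-fold. Both probe sets are of the kind specific to a single gene.

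S100b is the only one of the 10 genes that is not on chromosome 3 but on chromosome 10, and its start region is shown for that reason. The 250 bases before the start are chr10:76253586-76253835 on the plus strand of GRCm38.p6 (RefSeq). Capitals mark a match to a SOX-type core (ACAANG) and to an E-box (CANCTG), both here on the minus strand.
S100b: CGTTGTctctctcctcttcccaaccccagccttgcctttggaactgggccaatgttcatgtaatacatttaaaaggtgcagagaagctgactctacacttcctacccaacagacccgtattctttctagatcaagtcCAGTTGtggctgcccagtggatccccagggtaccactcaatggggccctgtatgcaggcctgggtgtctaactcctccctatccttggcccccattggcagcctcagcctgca
The SOX-type match ended 244 bases and the E-box 107 bases before the start, and they do not overlap. Such matches are common, in 36.3% and 44.8% of all promoter windows.

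Markers of Schwann cells and peripheral myelin were also lower. Of 10 tested genes 8 fell, 0 rose and 2 did not pass, with a median of -0.73 and a summed signal of 89776 to 95764 at 36 weeks and 142682 to 143971 at 7 weeks. Pmp22, a peripheral myelin protein, fell by 1.07 ± 0.06, and Ugt8a, which makes myelin galactolipids, averaged 1674 at 36 weeks and 4838 at 7 weeks. Cnp, an enzyme of myelin, fell by 0.83 ± 0.08 and Egr2, the transcription factor of myelinating Schwann cells, by 1.26 ± 0.13. S100b lay lower relative to these markers at 36 weeks. Its within-array log2 ratio over the list mean was 1.80, 1.90 and 2.10 at 36 weeks, against 2.99, 3.11 and 2.76 at 7 weeks, a difference of -1.02 ± 0.14 without overlap (exact permutation p = 0.1). With the dimmer S100b probe set the difference was -0.94, again without overlap.

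Other cells that hold S100b moved in both directions. Of 8 tested astrocyte and oligodendrocyte genes 5 were higher and 1, Gjb6, was lower, with a median of 0.58 and a summed signal of 48738 to 52577 at 36 weeks and 38769 to 41118 at 7 weeks. Aldoc, the brain aldolase, rose by 1.73 ± 0.06 and Fabp7, a fatty acid binding protein of glia, by 1.36 ± 0.12. Slc1a3, a glutamate transporter, and Aldh1l1, an astrocyte enzyme, rose by 1.01 and 0.71, but their adjusted p reached 0.0683 and 0.137 under some alternatives. Gfap, the other gene counted as higher, lost its call in 9 of 14 alternatives. Mobp, of oligodendrocytes, had -0.25 and did not pass, and Mog, also of oligodendrocytes, was too dim to test. Of 7 melanocyte genes 3 fell and 1, Kit, rose, with a median of -0.47 and a summed signal of 10744 to 11681 at 36 weeks and 22280 to 26137 at 7 weeks. Dct and Mitf, of the pigment lineage, fell by 2.10 ± 0.09 and 1.80 ± 0.15, and Slc45a2, a melanosome transporter, by 0.53 ± 0.14 (adjusted p of 0.00512 to 0.0504 over the alternatives). Tyr, tyrosinase, had -0.47 and did not pass. The part of each of these cell types in the S100b signal was not tested.

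S100a1, the muscle member, fell on both probe sets but by different amounts. The brighter, which can bind related transcripts, gave 9922, 9075 and 9135 at 36 weeks, against 41246, 45337 and 41628 at 7 weeks. The dimmer, specific to a single gene, gave 960.4, 1325 and 1172 at 36 weeks, against 3815, 3753 and 3365 at 7 weeks. The ages did not overlap on either probe set. The brighter fell 4.56-fold with a log2 difference of -2.18 ± 0.07 (limma, adjusted p = 4.96e-09), and the dimmer 3.16-fold with -1.63 ± 0.14 (adjusted p = 9.76e-06). Every comparison of S100a1 with something else below depends on which is taken.

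The 18 tested skeletal muscle genes were lower at 36 weeks, with a median of -1.68 and a summed signal of 117315 to 121478 at 36 weeks and 355753 to 380949 at 7 weeks. Of these, Myh7, Pgam2 and Sln were below the filter at 36 weeks, and the other 15 were above it at both ages. Tnni2 and Tnnc2, troponins of fast fibres, fell by 1.94 ± 0.07 and 1.70 ± 0.07. Acta1, skeletal actin, fell by 1.65 ± 0.07 and Mylpf, a myosin light chain, fell by 2.32 ± 0.09. Over the mean of these genes, the brighter S100a1 probe set gave 1.41, 1.34 and 1.26 at 36 weeks, against 1.61, 1.67 and 1.66 at 7 weeks. This was a difference of -0.31 ± 0.05 without overlap (exact permutation p = 0.1). The dimmer probe set gave the opposite sign, 0.25 ± 0.15, with overlapping values. The mean was over all 18 genes, including Myh7, Pgam2 and Sln, and a ratio over the other 15 was not tested.

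Supporting cells and cartilage, which can hold both S100a1 and S100b, gave lower lists as well. Of 9 tested supporting cell genes 8 fell and 0 rose, with a median of -1.06 and a summed signal of 20914 to 22152 at 36 weeks and 76634 to 78422 at 7 weeks. Tectb was below the filter at 36 weeks, and of the 8 genes above it at both ages 7 fell. Epyc, a small proteoglycan, fell by 3.63 ± 0.09. Gjb2 and Gjb6, the cochlear connexins, fell by 1.88 ± 0.07 and 2.03 ± 0.08, and Fabp3, a fatty acid binding protein, fell by 1.03 ± 0.12. Over this list S100a1 differed by -0.73 ± 0.05 without overlap on its brighter probe set, but by -0.17 ± 0.15 with overlap on its dimmer. S100b differed by -0.24 ± 0.10 without overlap on its brighter and -0.15 ± 0.08 with overlap on its dimmer. The first of these was -0.15 without the first array of 36 weeks and -0.12 with quantile normalization. The list mean included Tectb, and ratios over the 8 genes above the filter at both ages were not tested.

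Of 9 tested cartilage genes 7 fell and 2, Comp and Chad, rose, with a median of -1.07 and a summed signal of 12558 to 13769 at 36 weeks and 27726 to 28676 at 7 weeks. Cnmd, chondromodulin, fell by 2.41 ± 0.11, Col11a2 by 1.07 ± 0.10 and Col9a1 by 1.67 ± 0.16. Col9a3 averaged 226.6 at 36 weeks, below the filter, and 2149 at 7 weeks, so it was tested only through 7 weeks and the fitted -3.06 ± 0.29 depends on the offset. Relative to this list S100a1 differed by -1.25 ± 0.12 and S100b by -0.76 ± 0.13, and the ages did not overlap. With their dimmer probe sets the differences were -0.70 and -0.68, also without overlap. The list mean included Col9a3, and ratios without it were not tested. All 8 ratios of a member over a marker list had exact permutation p of 0.1 or above and adjusted p of 0.114 or above.

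**Figure D2:**
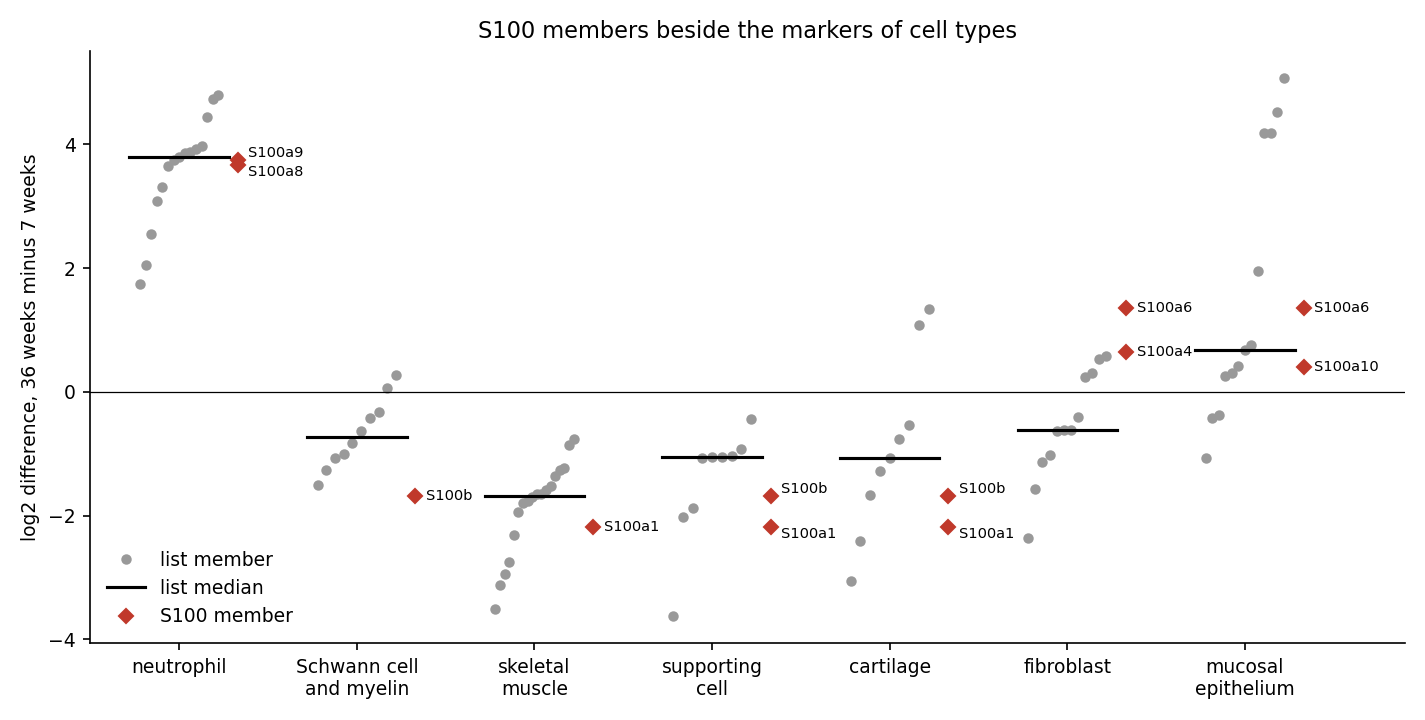
Log2 difference, 36 weeks minus 7 weeks, of the tested genes of 7 marker lists (grey points, with a black line at the median) and of S100 members known from those cells (red diamonds, brightest probe set). S100a8 and S100a9, at 3.66 and 3.74, sit near the neutrophil median, S100b and S100a1 sit below the medians beside them, and S100a4 and S100a6 sit above the fibroblast median of -0.62.

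The neutrophil, glial and muscle members were then compared with each other on the same arrays. The log2 ratio of S100a9 over S100b was 3.68, 3.55 and 3.44 at 36 weeks, against -1.78, -2.05 and -1.82 at 7 weeks. It was higher by 5.44 ± 0.11 at 36 weeks, an unequal change of 43.3-fold. For S100a9 over S100a1 the difference was 5.93 ± 0.10, or 5.37 with the dimmer S100a1 probe set. The ages were far apart in both ratios, and the exact two-sided permutation p was 0.1 for each (0.125 adjusted over the 5 member pairs compared).

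S100b over S100a1 gave 0.47, 0.77 and 0.87 at 36 weeks, against 0.25, 0.24 and 0.14 at 7 weeks, a difference of 0.49 ± 0.13 without overlap (exact permutation p = 0.1). With the dimmer S100a1 probe set it was -0.06 ± 0.10, with overlapping values. The sign of this difference therefore depends on the S100a1 probe set. In pattern over the arrays, the 3 genes closest to S100b were Tnnc2 (0.06), Acta1 (0.06) and Car3 (0.08), the last a carbonic anhydrase of muscle and fat. The closest to the brighter S100a1 probe set were Igf1, a growth factor (0.06), Slc26a4, the anion exchanger pendrin (0.08), and Dnase1, a nuclease (0.09). Car3 averaged 14919.8 at 36 weeks and 48200 at 7 weeks, and Igf1 averaged 1239 at 36 weeks and 5604 at 7 weeks. Here too closeness largely reflects a similar age difference. The log2 differences of Tnnc2, Acta1 and Car3 were -1.70, -1.65 and -1.69, against -1.69 for the brighter S100b probe set. Shared variation within an age was not tested.

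**Figure D3:**
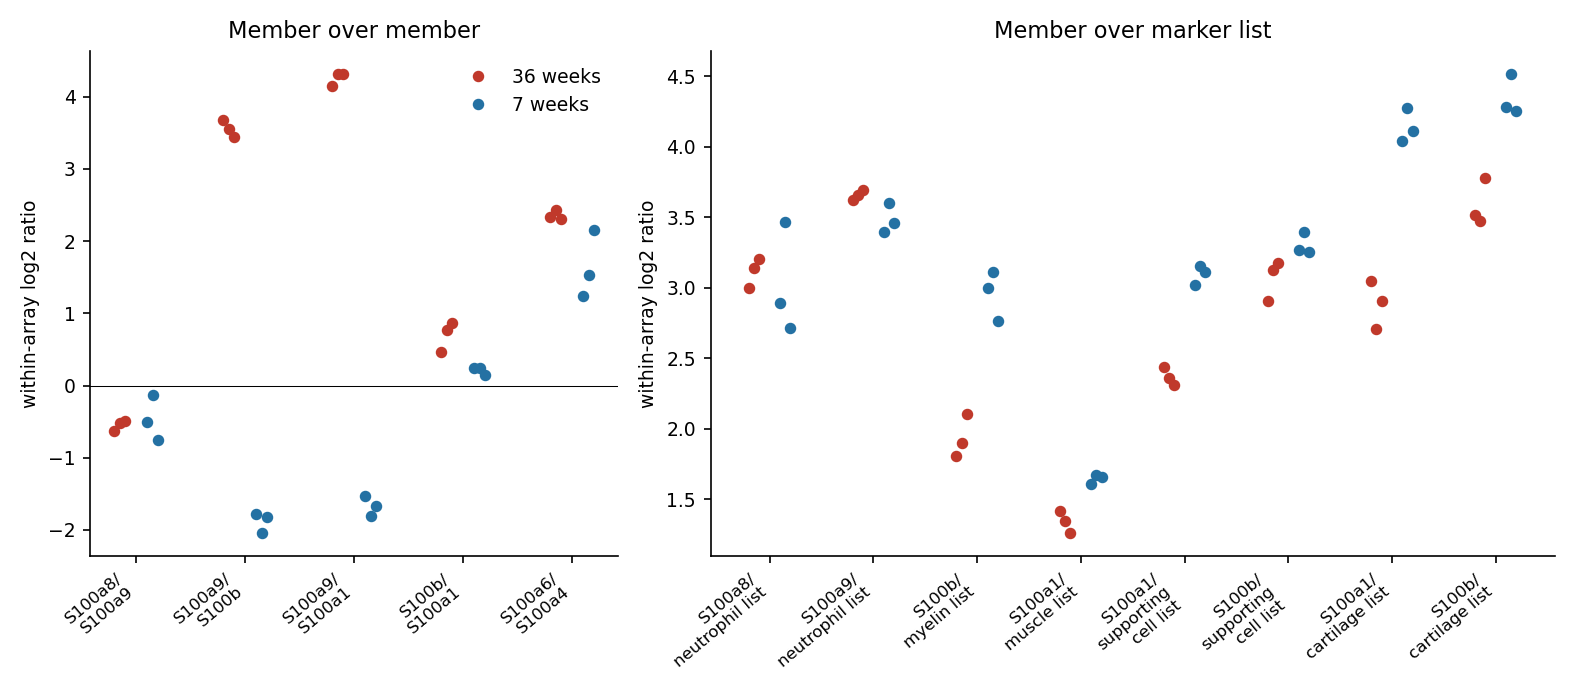
Within-array log2 ratios on the 3 arrays of 36 weeks (red, left) and the 3 arrays of 7 weeks (blue, right) for 5 pairs of members and for 8 combinations of a member with the mean of a marker list, each gene by its brightest probe set. S100a8 over S100a9 overlaps between the ages, whereas S100a9 over S100b and over S100a1 differ by 5.44 and 5.93.

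S100a13, which takes part in the release of Fgf1 from cells, had signals of 4228, 5129 and 5028 at 36 weeks, against 8821, 7784 and 7699 at 7 weeks. The ages did not overlap, and the mean was 1.69-fold lower at 36 weeks, a log2 difference of -0.75 ± 0.10 (limma, adjusted p = 0.000224). S100a13 and S100a1 are neighbours on chromosome 3 and are read away from each other from starts with 104 bases between them in the RefSeq promoter entries. The stretch between the starts, chr3:90514331-90514434 of GRCm38.p6 on the plus strand, in the reading direction of S100a13, is shown because both genes fell.
S100a1 and S100a13: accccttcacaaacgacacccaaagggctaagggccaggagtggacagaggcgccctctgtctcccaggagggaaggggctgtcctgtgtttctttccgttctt
It holds none of the 6 motifs searched, which were the 5 above and a MEF2-type site (CTA and TAG with any 4 bases between them, in 3.2% of all windows), so it has no capitals. Its GC content was 58.7%, against a median of 52.4% over all promoter windows. The 52.4% and the 3.2% are for windows of 250 bases, and stretches of 104 bases were not compared. A match that is missing says only that these letters are not in this window.

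S100a6, calcyclin, which binds a ubiquitin ligase adaptor, rose. It had 11736, 13313 and 12522 at 36 weeks, against 4652, 5017 and 4898 at 7 weeks. All 3 arrays of 36 weeks were at least 2.34-fold above every array of 7 weeks. The log2 difference was 1.36 ± 0.08 (limma, adjusted p = 5.89e-07).

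S100a10, the light chain of a complex with annexin A2 that carries channels and plasminogen to the cell surface, rose slightly on its brighter probe set. It gave 7419, 6928 and 7361 at 36 weeks, against 5582, 5709 and 5191 at 7 weeks, a 1.32-fold rise with a log2 difference of 0.39 ± 0.08 (limma, adjusted p = 0.00361). The dimmer, which can bind related transcripts, gave 5813, 3080 and 3534 at 36 weeks, against 3028, 3751 and 3666 at 7 weeks. There the ages overlapped, the first array of 36 weeks stood above the other 5, and the log2 difference of 0.20 ± 0.20 did not pass (adjusted p = 0.479). Without that array it was -0.07. The mean of both probe sets differed by 0.30, which did not pass (limma, adjusted p = 0.0894).

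S100a4, which binds non-muscle myosin and marks many fibroblasts and leukocytes, had 2298, 2419 and 2481 at 36 weeks, against 1943, 1709 and 1063 at 7 weeks. The ages did not overlap, but the third array of 7 weeks was well below the other 2. The log2 difference was 0.64 ± 0.19 (limma, adjusted p = 0.0278). The call was lost in 7 of 14 alternatives, with adjusted p of 0.0111 to 0.0713 over all 14. It was lost with median centring, without the filter and without the intensity trend. It was also lost without the third array of 7 weeks and without each array of 36 weeks. Without the third array of 7 weeks the difference was 0.39 (adjusted p = 0.0508). Without each array of 36 weeks it was 0.61 to 0.67 (adjusted p of 0.0540 to 0.0713). S100a6 over S100a4 was higher at 36 weeks, with a difference of 0.72 ± 0.27 in the within-array log2 ratio and no overlap (exact permutation p = 0.1).

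Fibroblast genes were mostly lower at 36 weeks, while S100a4 and S100a6 were higher. Of 12 tested fibroblast genes 7 fell and 1, Col1a1, rose, with a median of -0.62 and a summed signal of 73613 to 78826 at 36 weeks and 105648 to 112060 at 7 weeks. Col3a1 and Col1a2, collagen chains, fell by 1.57 ± 0.09 and 0.62 ± 0.06 and Dcn, decorin, by 1.02 ± 0.08. Pdgfra, a growth factor receptor, fell by 2.37 ± 0.21 to 393.7 at 36 weeks, below the filter, against 2231 at 7 weeks.

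Markers of mucosal epithelium, which can make S100a6 and S100a10, rose in part. Of 13 tested 8 were higher and 2, Epcam and Cdh1, lower, with a median of 0.68 and a summed signal of 546880 to 589395 at 36 weeks and 167927 to 181287 at 7 weeks. Tff2, a trefoil peptide, Muc5b, a mucin, and Agr2, an isomerase of mucus cells, rose by 4.52 ± 0.07, 4.18 ± 0.08 and 4.18 ± 0.20, and Bpifb1, a secreted airway protein, by 1.95 ± 0.06. Agr2, at 338.9, and Reg3g were below the filter at 7 weeks, and of the 11 genes above it at both ages 6 were higher. Of 7 keratinocyte genes 5 fell and 0 rose, with a median of -1.07 and a summed signal of 4953 to 5438 at 36 weeks and 8576 to 9954 at 7 weeks. Krt1, Krt10 and Krt14, keratins, fell by 1.07, 1.08 and 1.38, and Krtdap, a secreted epidermal protein, by 1.70 (adjusted p of 0.00664 to 0.0526 over the alternatives). Krt1, Krt14 and Krtdap were below the filter at 36 weeks, and of the 4 genes above it at both ages 2 fell. The part of these cell types in the S100a6, S100a10 and S100a4 signals was not tested.

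S100a3, known from the hair cuticle, was too dim to be tested, with a mean of 372.4 over the 6 arrays. It gave 696.4, 114.2 and 202.0 at 36 weeks, against 604.3, 235.0 and 382.2 at 7 weeks. The ages overlapped. Without the filter its log2 difference was -0.46 ± 0.58 (limma, adjusted p = 0.641).

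**Figure D4:**
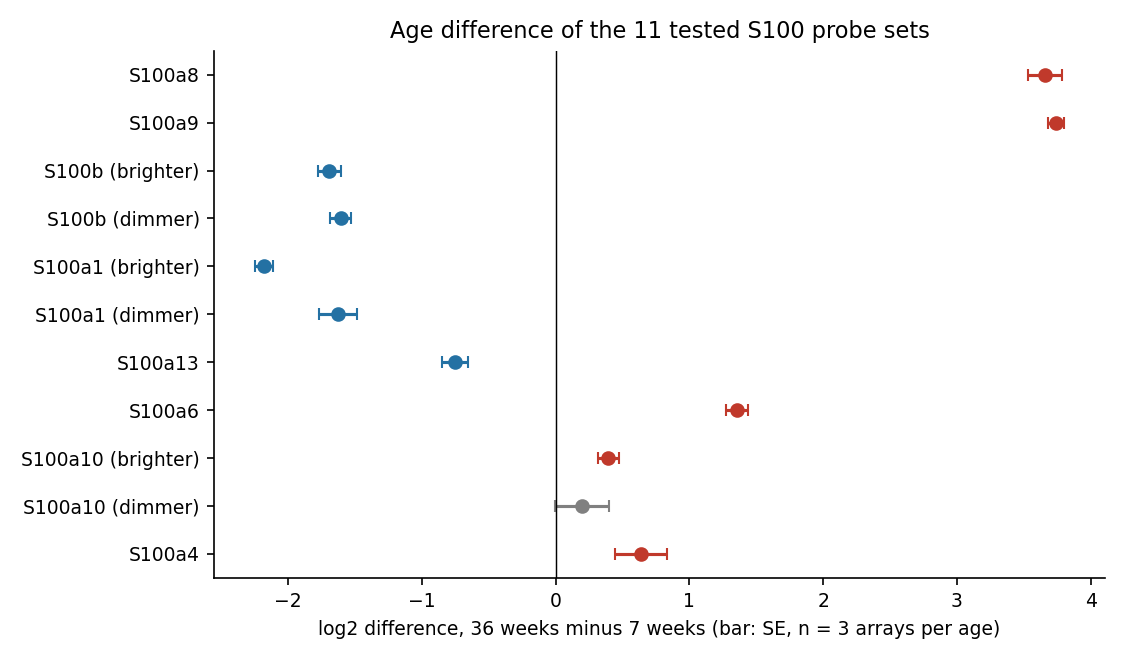
Log2 difference, 36 weeks minus 7 weeks, of the 11 tested S100 probe sets, with bars of 1 SE (n = 3 arrays per age). Red points are higher and blue points lower past the threshold, from 3.74 for S100a9 to -2.18 for the brighter S100a1 probe set, and the grey point is the dimmer S100a10 probe set, which did not pass.

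Along chromosome 3 the members that fell and those that rose lay apart. In the RefSeq gene order S100a1 and S100a13, with -2.18 and -0.75, open the cluster. S100a4, S100a6, S100a8 and S100a9 follow further on, with 0.64, 1.36, 3.66 and 3.74. S100a16 and S100a5, which stand between members and were outside the 10 genes, had 0.08 and 0.18 and did not pass. S100a10 and S100a11 lie beyond the cluster, after 77 other genes of the RefSeq table, and S100a10 had 0.39. This order is a description of 7 genes, with no test.

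**Figure D5:**
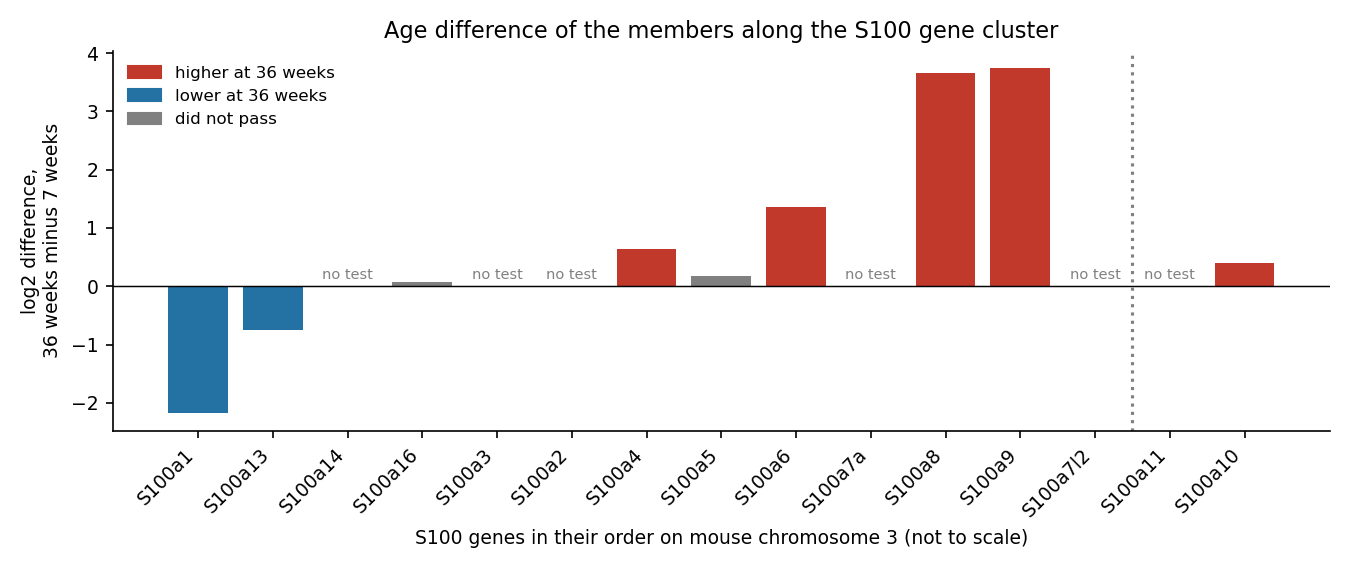
Log2 difference, 36 weeks minus 7 weeks, of S100 genes by their order on mouse chromosome 3 (brightest probe set, spacing not to scale, dotted line where other genes intervene). Bars run from -2.18 for S100a1 at the left to 3.74 for S100a9, and genes with no tested single-symbol probe set are marked.

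Of 12 other genes of the S100 and S100-fused group, 9 were on the array and 4 were bright enough to test. S100pbp, which encodes a protein that binds an S100 family member in human, fell by 0.76 ± 0.15 (limma, adjusted p = 0.00316). S100a5, S100a16 and Rptn, an S100-fused epidermal protein, did not pass. S100g, the calbindin of gut and kidney, was at 25.2 at 36 weeks and 19.3 at 7 weeks, far below the filter.

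The proteins that S100 members bind or act through were followed as a list of 38 genes, of which 29 were tested. Of these 8 rose, 8 fell and 13 did not pass, and of the 26 with a mean above the filter at both ages 6 rose and 8 fell, against 34.4% of all tested probe sets past the threshold, and the list median was -0.02. Among receptors of calprotectin and S100b, Tlr4, the lipopolysaccharide receptor, did not pass, with 542.2, 879.1 and 601.6 at 36 weeks, against 614.0, 430.7 and 646.7 at 7 weeks. Ager, the receptor for advanced glycation end products, was below the filter, with means of 123.4 at 36 weeks and 83.7 at 7 weeks. Bsg, Cd36 and Alcam did not pass. Cd33, a lectin of myeloid cells, had 1001, 689.1 and 1266 at 36 weeks, against 50.6, 510.7 and 70.6 at 7 weeks. Its mean was below the filter at 7 weeks, so it was tested only through its signal at 36 weeks and in 9 of the 14 alternatives. The fit gave 2.41 ± 0.63 (limma, adjusted p = 0.0132), a size that depends on the offset.

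Calprotectin helps to activate the phagocyte oxidase, whose membrane subunits are Cyba and Cybb. Cyba rose, with 6423, 8121 and 8431 at 36 weeks, against 2114, 1800 and 1770 at 7 weeks, a log2 difference of 1.98 ± 0.12. Cybb averaged 1830 at 36 weeks and 404.9 at 7 weeks, below the filter at the younger age, so it too was tested only through 36 weeks, and the fit gave 2.28 ± 0.44. Neither gene's values overlapped between the ages.

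Partners of the S100a10 and S100a11 type divided. Anxa2, the annexin that S100a10 joins, had 29481, 27215 and 26602 at 36 weeks, against 14789, 15162 and 16496 at 7 weeks, a rise of 0.84 ± 0.07 (limma, adjusted p = 8.58e-06). Anxa1, an annexin of leukocytes and epithelia, rose by 1.20 ± 0.09. Ahnak, a large scaffold that binds the complex of S100a10 with annexin A2, fell by 0.80 ± 0.08. Plat, tissue plasminogen activator, and Htr1b, a serotonin receptor that binds S100a10, fell by 0.64 ± 0.20 and 0.59 ± 0.17, Htr1b with overlapping values. Their adjusted p ranged over the alternatives from 0.0102 to 0.104 for Plat and from 0.00753 to 0.0821 for Htr1b, and the Plat difference was -0.43 without the third array of 7 weeks. Anxa5 and Anxa6 did not pass.

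The muscle partners of S100a1 fell. Ryr1, the calcium release channel of skeletal muscle, had 2505, 2405 and 3077 at 36 weeks, against 7446, 5517 and 7520 at 7 weeks, a log2 difference of -1.34 ± 0.14. Atp2a1, the calcium pump of fast fibres, fell by 1.12 ± 0.06, Ttn, titin, by 1.33 ± 0.08 and Pygm, muscle glycogen phosphorylase, by 0.60 ± 0.09. Atp2a2, the pump of slow fibres and of other cells, had -0.01 ± 0.06 and did not pass. These partners fell on the arrays on which the muscle list had a median of -1.68.

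Partners of S100b and S100a13 went both ways. Mapt, the microtubule protein tau, rose by 0.89 ± 0.10. Gfap, the filament protein of astrocytes, rose by 0.45 ± 0.15, but its values overlapped and the call was lost in 9 of 14 alternatives, with adjusted p of 0.0165 to 0.136. Fgf1, released with S100a13, fell by 0.49 ± 0.14 with overlapping values and adjusted p of 0.00498 to 0.0757 over the alternatives. Syt1, a synaptic vesicle protein of the same release complex, rose by 1.04 ± 0.18. Without the first array of 36 weeks 5 of the 29 tested partners fell, in place of 8.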

How the data were processed

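Cochlear RNA was extracted with TriZol and turned into biotin-labelled cRNA for Affymetrix hybridisation, per the labels' protocols. The authors deposited linear intensity values, 1 per probe set and array. No source used here names the summarising software. Trimmed means (2% left out at each end) were 1489.8 to 1492.5 on the 6 arrays. The platform annotation gave 20380 of 22626 probe sets a single symbol.

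Signals were taken as log2(signal + 50). The 13575 probe sets with a mean signal above the 40th percentile were tested, 36 weeks minus 7 weeks, with limma 3.58.1 in R 4.3.3 (lmFit, eBayes with intensity trend, Benjamini-Hochberg over all of them, threshold 0.05), and the script was tested on simulated data. Ratios of a member over another or over a list mean used an exact permutation test, which cannot go below 0.1 with 3 against 3. The planned pair S100a9 over S100a11 was not run. Genes with several probe sets were represented by the brightest unless both are given. Named were all members, partners past the threshold, 4 markers per list by smallest p in its main direction, the 3 genes most like S100a9, S100b and S100a1, and other genes of the family by their values. Genes named beyond this rule (Tlr4, Ager, Bsg, Cd36, Alcam, Anxa5, Anxa6, Atp2a2, Kcne1, Tectb, Myo7a, Ctsg, Cxcr2, Itgb2l, Chil3, Mobp, Mog, Myh7, Pgam2, Sln, Reg3g, Comp, Chad, Col1a1, Kit, Epcam, Cdh1) were picked once values had been seen. The members and lists were chosen with earlier results of these data known. Promoter sequences are from RefSeq (GRCm38.p6), with entries for 8 of the 9 measured members. Alternatives were offsets of 1 and 16, quantile normalization, median centring, other filters, no intensity trend, a replicate block, the 9 pairs of arrays with a 1.5-fold minimum, gene means and each array left out.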

Additional observations from a re-analysis of the deposited data

How the results depend on the processing

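The calls and directions of S100a8, S100a9, both S100b, both S100a1, S100a13, S100a6 and the brighter S100a10 probe set held in the 14 alternatives fitted per probe set. The number of S100 probe sets higher was 4 or 5 and the number lower 5 in every alternative, and with gene means 4 genes were higher and 3 lower. The S100 members that lost their call were S100a4, in the alternatives named beside its values, and S100a10, with gene means (0.30, adjusted p = 0.0894, limma) and under the rule of 9 pairs with a 1.5-fold minimum. Among the partners, the number lower was 5 without the intensity trend and 5 to 8 when an array was left out. Over all tested probe sets 48.6% of calls were higher, but 36.0% when arrays were centred on their medians, which shifted every log2 difference by 0.10 (1738 higher and 3088 lower, in place of 2267 and 2398).

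Quantile normalization gave 5.13 for S100a9 over S100b, 5.61 for S100a9 over S100a1, 0.0043 for S100a9 over the neutrophil list and -0.60 for S100a1 over the supporting cell list. The dimmer S100a1 probe set, an alternative added after seeing the data, gave 5.37 for S100a9 over S100a1 and turned the sign of S100b over S100a1 to -0.064 and of S100a1 over the muscle list to 0.25. It gave -0.17 and -0.70 over the supporting cell and cartilage lists. The cause was not tested. The replicate numbers did not pair the arrays: deviations of same-numbered arrays correlated by 0.0488, -0.0103 and -0.00206. With the replicate block 2121 probe sets were higher and 2254 lower, and the S100 counts stayed at 5 and 5. The number of arrays and the dim signal limit S100a3, Cd33 and Cybb.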
